A study of Homo sapiens with 29 samples.

Results

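The genes described here encode molecular chaperones and factors of the unfolded protein response. They comprise 47 human genes, named one by one, out of 19785 protein-coding genes with an annotated start. The list holds 10 HSP70 genes, 4 HSP90 genes, 2 small heat shock proteins, the 2 subunits of the mitochondrial chaperonin, 7 J proteins, the 8 subunits of the cytosolic chaperonin TRiC, 3 co-chaperones, 5 folding factors of the endoplasmic reticulum (ER) and 6 genes of the unfolded protein response and ER-associated degradation (ERAD). A gene was called occupied by a factor when a peak reached to within 1 kb of 1 of its coding transcript starts, and its value is the width of the widest such peak in bp. The data are chromatin immunoprecipitation and sequencing (ChIP-seq) peak lists for the INO80 chromatin remodelling complex in HepG2 and Huh7, 2 lines derived from human liver tumours. In HepG2 the INO80 list rests on 3 libraries, the lists of the subunits MCRS1, RUVBL1 and RUVBL2 on 2 libraries each, and the list of the transcription factor YY1 on reads of the ENCODE project with no sample record. In Huh7 the INO80, MCRS1, RUVBL2 and YY1 lists rest on 2 libraries each. The labels name no drug treatment for these libraries, and both lines are cultured tumour lines, not liver tissue.

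INO80 is the ATPase of a complex that slides nucleosomes and acts on histone H2A.Z, and it is found at many promoters next to the nucleosome-free start. RUVBL1 and RUVBL2 are paired ATPases that also work in other complexes, among them one that assembles protein complexes together with HSP90, while YY1 is a zinc finger protein that associates with INO80. Chaperones fold new and damaged proteins: in the cytosol, heat shock factor 1 switches on many of their genes through heat shock elements, and in the ER the unfolded protein response does so through the transcription factors XBP1, ATF6 and ATF4. Hepatocytes secrete much of the blood's protein and depend strongly on the ER branch.

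The 9 lists held 3322 to 39293 peaks, and the narrowest peak of every list was 147 bp wide. They give positions only, so no peak height, read depth or replicate value exists, no test could be run, and counts and widths below are descriptions of single lists. A longer list reaches more genes, so a gene without a peak in 1 line is not a tested difference between lines. Of 8 hepatocyte genes used to describe the lines, 7 had an INO80 peak in HepG2, beside 63.7% of coding genes. In Huh7, 2 of the 8 had one, beside 47.7%, and 8 genes are too few to compare the lines. APOB and TF were the 2 with INO80 in Huh7, and occupancy is not expression.

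INO80 lay at nearly all of these genes in HepG2 and at most of them in Huh7. In HepG2, 44 of 47 genes had an INO80 peak, where the share over all coding genes was 63.7%. MCRS1 occupied 45 genes against a share of 58.1% of coding genes, RUVBL1 occupied 22 against 16.8%, RUVBL2 occupied 34 against 39.1%, and YY1 occupied 45 against 62.6%. INO80, MCRS1 and YY1 were thus near complete in HepG2, and the RUVBL proteins were at fewer of the genes. In Huh7, INO80 occupied 39 genes, where the share over coding genes was 47.7%. MCRS1 occupied 22 genes in Huh7 against 21.8% of coding genes, RUVBL2 occupied 17 against 12.7%, and YY1 occupied 44 against 51.5%. As percentages of the 47 genes, INO80 reached 93.6% in HepG2 and 83.0% in Huh7, and YY1 reached 95.7% in HepG2 and 93.6% in Huh7. The share among the 47 genes thus lay above the share among all coding genes in each of the 9 lists. The 47 genes had a median of 3 starts each, beside 2 for coding genes, which gives more room for a peak or a wider one. With 1 representative start per gene, INO80 peaks covered the start itself at 85.1% of the 47 genes in HepG2, beside 48.5% of coding genes. In Huh7 they covered it at 55.3%, beside 24.3%.

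**Figure D1:**
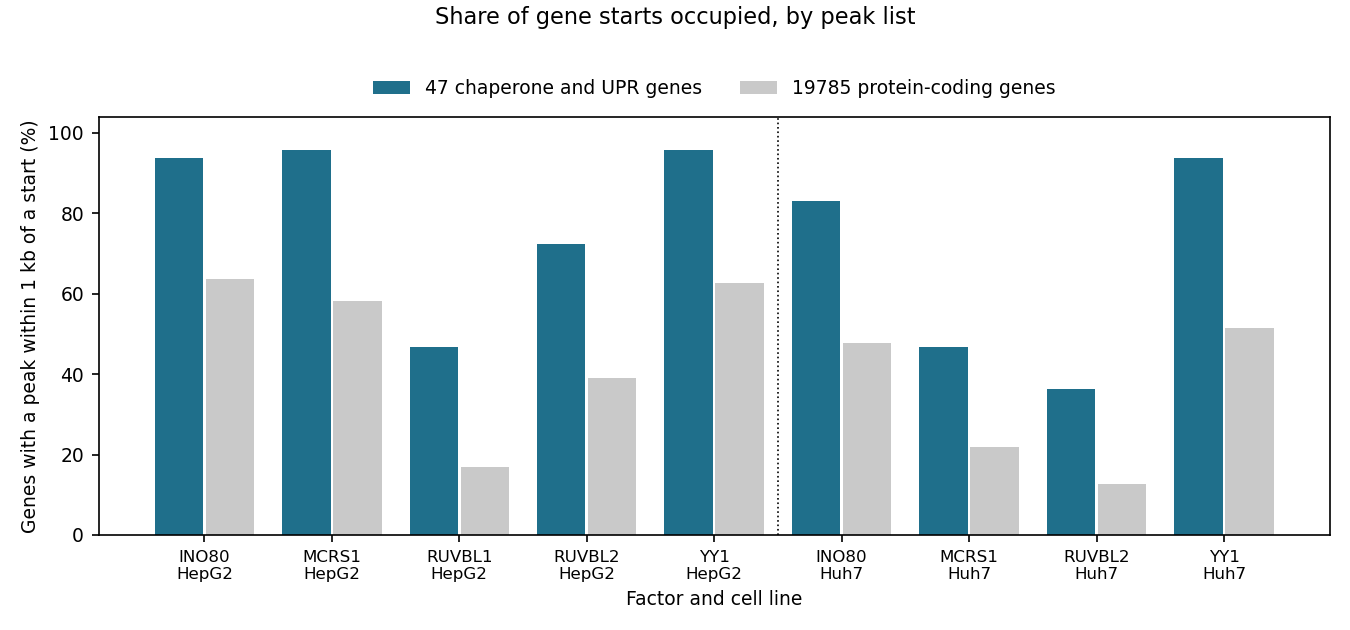
Share of genes with a peak within 1 kb of a start (y axis, percent of genes) in each of the 9 peak lists (x axis, HepG2 left of the dotted line and Huh7 right of it). Dark bars are the 47 chaperone and unfolded protein response genes and grey bars all 19785 protein-coding genes; the dark bar is the higher one in every list, at 93.6% and 63.7% for INO80 in HepG2.

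Promoter type differed too. In the 250 bases before the start, 40 of the 47 genes (85.1%) were CpG-rich, against 62.4% of coding genes, taking as CpG-rich a GC share of at least 50% with at least 0.6 of the CpG count that base composition predicts. Among CpG-rich promoters alone, INO80 occupied 39 of 40 chaperone genes in HepG2 beside 85.4% of CpG-rich coding genes, and 35 of 40 in Huh7 beside 64.9%. MCRS1 and YY1 each occupied 40 of 40 in HepG2, beside 77.7% for MCRS1 and 82.2% for YY1, and in Huh7 MCRS1 occupied 21 beside 29.4% and YY1 occupied 40 beside 70.2%. RUVBL1 occupied 18 of those 40 genes in HepG2 beside 21.9%, RUVBL2 occupied 30 in HepG2 beside 53.8% and 16 in Huh7 beside 17.4%. The gap to coding genes was smaller within this promoter type than over all promoters in each of the 9 lists. For INO80 it was 12.1 percentage points in HepG2, against 29.9 over all promoters, and 22.6 in Huh7, against 35.3, and for RUVBL2 it was 21.2 in HepG2, against 33.2, and 22.6 in Huh7, against 23.5. Chaperone genes also sat in dense neighbourhoods: 16 of 47 (34.04%) had the start of another coding gene within 1 kb, against 16.8% of coding genes, and a peak there cannot be assigned to 1 gene. The 31 genes with no such neighbour had INO80 at 28 in HepG2 and at 25 in Huh7.

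Peaks at chaperone genes were wide for their lists. The median INO80 peak was 1611 bp over the 44 occupied genes in HepG2, beside 1119 bp over occupied coding genes, and 859 bp over 39 genes in Huh7, beside 635 bp. Within its own list, the median gene stood at the 83.3rd percentile of INO80 width in HepG2, where the median occupied coding gene stood at 69.7. For RUVBL1 the median gene stood at the 87.0th percentile in HepG2, beside 57.3, and for MCRS1 in Huh7 at the 82.4th, beside 56.9. The median percentile of the chaperone genes was above that of coding genes in all 9 lists. Of the 44 genes with INO80 in HepG2, 17 (38.6%) had a peak among the widest 10% of the list, beside 17.7% of occupied coding genes, and for RUVBL1 the counts were 10 of 22 (45.5%) beside 12.1%.

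Lists cut to equal length by width left fewer genes, again at a higher share than among coding genes. Since the widest peaks were the ones kept, this restates the width result and is no separate support for occupancy. When the 3322 widest peaks of every list were kept, which is the length of the shortest list, INO80 remained at 20 of 47 genes in HepG2, beside 15.6% of coding genes, and at 18 in Huh7, beside 15.3%. YY1 remained at 22 genes in Huh7 beside 14.7%, MCRS1 at 17 in Huh7 beside 13.5%, and RUVBL1 at 19 in HepG2 beside 11.2%. HSP90AB1, ATF4 and DDIT3 kept a peak in all 9 shortened lists, a count not made over coding genes. At DDIT3 the RUVBL2 and YY1 peaks kept in HepG2 lie 1655 bp and 1160 bp from its representative start. Its peaks at that start, of 471 bp and 1200 bp, were below the narrowest widths kept, 735 bp and 1292 bp.

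**Figure D2:**
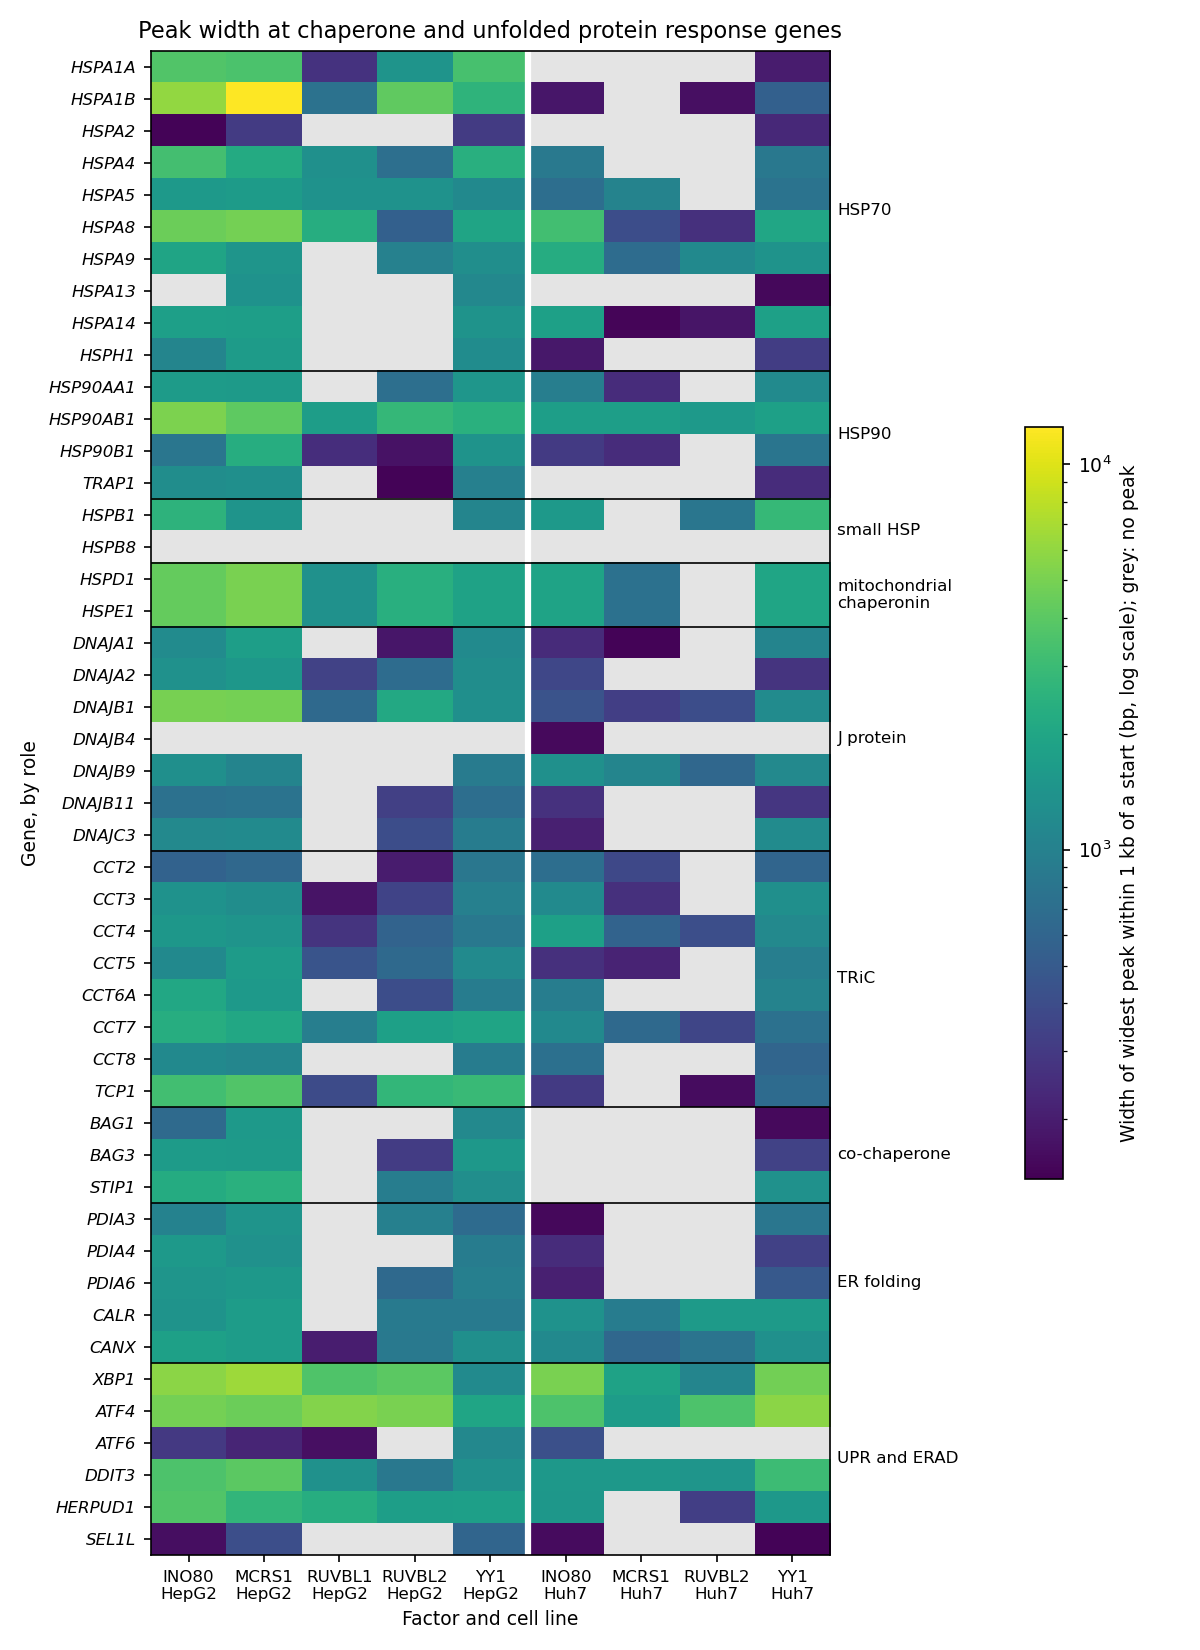
Width of the widest peak within 1 kb of a start (colour, bp on a log scale; grey, no peak) for each of the 47 genes (rows, grouped by role) in each peak list (columns, HepG2 left of the white line and Huh7 right of it). The brightest cell is MCRS1 at HSPA1B in HepG2 (12475 bp), the only row with no peak in any list is HSPB8, and the co-chaperones BAG1, BAG3 and STIP1 are grey for INO80, MCRS1 and RUVBL2 in Huh7.

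Coverage was highest next to the start. In HepG2, INO80 peaks covered the position 100 bp downstream of the start in 91.5% of the 47 genes, the highest coverage along the profile, beside 53.3% of coding genes. At 1000 bp upstream INO80 covered 29.8% of the chaperone genes, and at 1000 bp downstream 40.4%, beside 10.9% and 16.97% of coding genes. MCRS1 followed the same outline, with 93.6% at 100 bp downstream in HepG2. YY1 in HepG2 was as frequent, with 93.6% at 50 bp downstream, but narrower: at 1000 bp downstream it covered 12.8% of the genes. In Huh7, INO80 coverage was highest at 100 bp downstream too, at 68.1% of the genes beside 28.6% of coding genes.

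**Figure D3:**
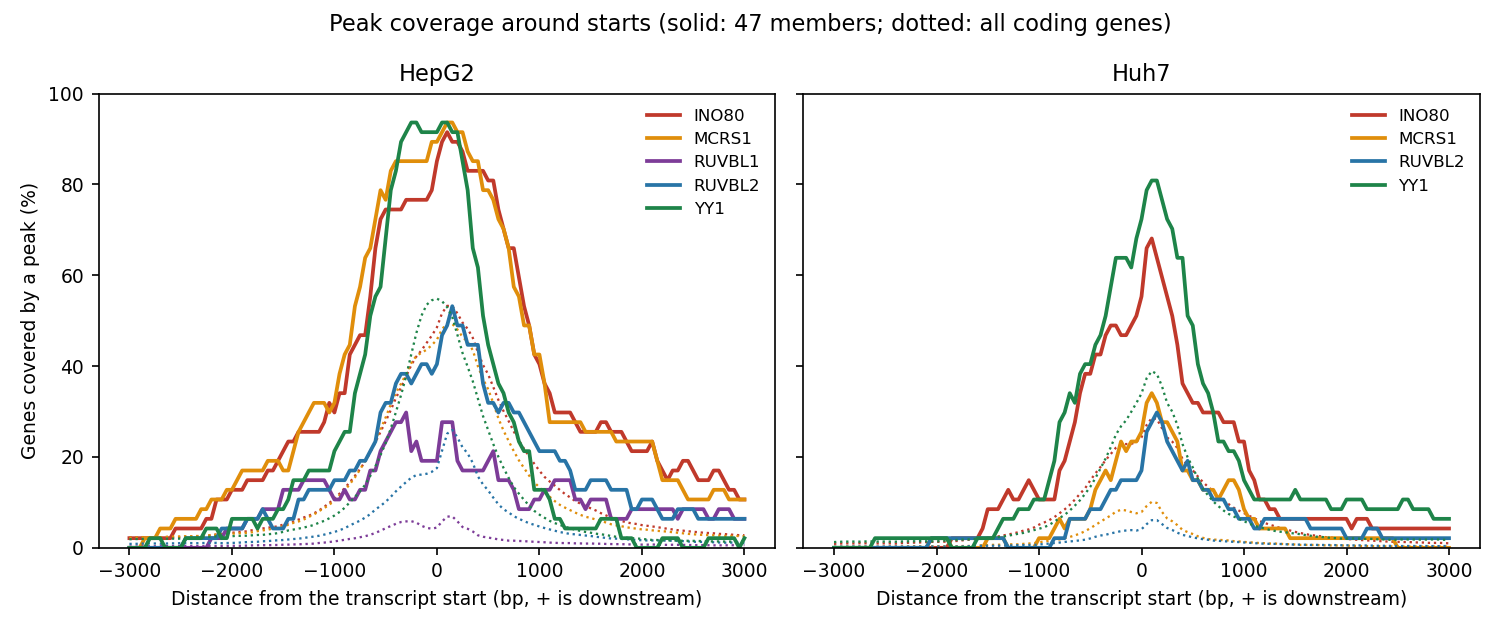
Share of genes covered by a peak (y axis, percent) at each distance from the representative transcript start (x axis, bp, downstream positive) in HepG2 (left) and Huh7 (right). Solid lines are the 47 genes and dotted lines all coding genes; INO80 tops at 91.5% in HepG2 and 68.1% in Huh7, 100 bp past the start, and YY1 falls away faster downstream than INO80 in HepG2.

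HSP70 proteins bind exposed hydrophobic stretches of client proteins in cycles of ATP hydrolysis. INO80 occupied 9 of the 10 HSP70 genes in HepG2 and 7 in Huh7, and YY1 occupied all 10 in both lines. The promoters of the stress-inducible pair HSPA1A and HSPA1B are shown with that of DNAJB1, the J protein partner that is induced with them, because these 3 genes had INO80 peaks of 3713 to 6015 bp in HepG2 and a peak of at most 438 bp or none in Huh7. Capitals mark heat shock elements, found by the letters GAANNTTC or TTCNNGAA, the 2 orders in which inverted GAA units can stand next to each other; each reads the same on both strands. Sequences are those of hg19, read 5′ to 3′ in the direction of the gene. They lie at chr6:31783070-31783319 (plus strand, HSPA1A), chr6:31795265-31795514 (plus strand, HSPA1B) and chr19:14629220-14629459 (minus strand, DNAJB1), and the first base printed is 250 bases before the start.
HSPA1A: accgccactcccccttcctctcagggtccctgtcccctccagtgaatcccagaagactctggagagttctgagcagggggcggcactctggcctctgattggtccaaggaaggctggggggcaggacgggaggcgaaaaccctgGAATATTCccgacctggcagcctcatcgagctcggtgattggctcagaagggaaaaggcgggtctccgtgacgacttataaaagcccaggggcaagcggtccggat
HSPA1B: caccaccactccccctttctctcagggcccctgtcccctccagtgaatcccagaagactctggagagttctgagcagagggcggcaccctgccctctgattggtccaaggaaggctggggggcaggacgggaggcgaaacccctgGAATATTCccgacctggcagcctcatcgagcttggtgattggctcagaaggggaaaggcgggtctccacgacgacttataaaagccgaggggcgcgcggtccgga
DNAJB1: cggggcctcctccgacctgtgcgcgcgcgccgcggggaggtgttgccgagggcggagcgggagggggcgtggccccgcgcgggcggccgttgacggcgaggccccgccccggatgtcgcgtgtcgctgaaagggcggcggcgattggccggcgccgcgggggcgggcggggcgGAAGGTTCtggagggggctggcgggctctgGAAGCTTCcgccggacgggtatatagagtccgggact

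HSPA1B carried the widest INO80 and MCRS1 peaks of the whole group in HepG2. Its widest peak there was 6015 bp for INO80, 12475 bp for MCRS1, 764 bp for RUVBL1, 4167 bp for RUVBL2 and 2582 bp for YY1. The MCRS1 peak ranked 11th by width among 23425 peaks and ran from 985 bp before the start to 11489 bp past it, beyond the end of the gene. Measured from the HSPA1A start, it spans 11210 to 23684 bp and takes in a region past HSPA1B. There INO80 had a separate peak in HepG2, at 17980 to 22765 bp. In Huh7, INO80 had a peak there at 18905 to 22283 bp and MCRS1 at 19008 to 21376 bp. RUVBL2 and YY1 had peaks in that region in both lines. The full width thus does not belong to HSPA1B alone. In Huh7, HSPA1B had an INO80 peak of 184 bp, a RUVBL2 peak of 167 bp and a YY1 peak of 552 bp, and no MCRS1 peak within 1 kb of its start. Each factor mapped in both lines was thus narrower or absent within 1 kb of the HSPA1B start in Huh7. HSPA1A had peaks of 3713 bp for INO80, 3499 bp for MCRS1, 270 bp for RUVBL1, 1427 bp for RUVBL2 and 3353 bp for YY1 in HepG2, and in Huh7 only a YY1 peak of 197 bp. The INO80, MCRS1 and YY1 peaks at HSPA1A in HepG2 also cover the start of HSPA1L, a testis HSP70 gene that starts 260 bp away on the other strand. HSPA1A and HSPA1B encode nearly the same protein, and 235 of the 250 promoter bases printed (94%) are identical, so reads from one copy may have been placed on the other and the 2 genes are not independent.

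HSPA8 encodes the constitutive cytosolic HSP70 and was 1 of the 9 genes with a peak in every list. Its INO80 peak was 4593 bp in HepG2 and 3183 bp in Huh7, where it ranked 150th of 15303 peaks. Around its start, short sequences with heat shock elements in capitals lie at chr11:122933056-122933080 and chr11:122932881-122932905 (minus strand), each made of 2 overlapping motif matches.
HSPA8, 230 bases before the start: gagcttGAAAGTTCCAGAAcgctgc
HSPA8, 55 bases before the start: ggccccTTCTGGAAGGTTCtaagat

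HSPA5, the ER-resident HSP70 also called BiP and a classical target of the unfolded protein response, had an INO80 peak of 1567 bp in HepG2 and 709 bp in Huh7, all 5 factors in HepG2 and no RUVBL2 peak in Huh7. HSPA9, the mitochondrial HSP70, had INO80 peaks of 1933 bp in HepG2 and 2255 bp in Huh7, and HSPA14, a ribosome-associated HSP70, had peaks of 1773 bp in HepG2 and 1796 bp in Huh7. These 2 were wider in Huh7. HSPA14 shares its start region with CDNF and MSANTD7. HSPA4 and HSPH1 encode HSP110-type exchange factors that release ADP from HSP70: INO80 peaks were 3274 bp in HepG2 and 859 bp in Huh7 at HSPA4, and 1090 bp in HepG2 and 187 bp in Huh7 at HSPH1. HSPA2, best known for its role in sperm formation, had the narrowest INO80 peak of the group, with 147 bp of INO80 in HepG2, which is the narrowest width of the list, and no INO80 peak in Huh7. HSPA13, a microsomal HSP70, had no INO80 peak in either line. The nearest one lay 109061 bp away in HepG2 and 355232 bp away in Huh7. It still had an MCRS1 peak of 1377 bp and a YY1 peak of 1134 bp across its start in HepG2, and a YY1 peak of 154 bp in Huh7.

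HSP90 proteins mature signalling proteins, and all 4 genes had INO80 in HepG2 and 3 had it in Huh7. HSP90AB1, the constitutive cytosolic form, was among the most widely covered genes of the group. Its widest peaks in HepG2 were 5117 bp for INO80, 4099 bp for MCRS1, 1718 bp for RUVBL1, 2789 bp for RUVBL2 and 2412 bp for YY1, and in Huh7 they were 1735 bp for INO80, 1736 bp for MCRS1, 1553 bp for RUVBL2 and 1810 bp for YY1. HSP90AA1, the inducible form, had 1648 bp of INO80 in HepG2 and 954 bp in Huh7. HSP90B1, the ER form, had 815 bp in HepG2 and 299 bp in Huh7. TRAP1, the mitochondrial form, had INO80 at 1256 bp in HepG2 and none in Huh7, where its only peak was 246 bp of YY1.

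The 3 co-chaperones formed the one role with INO80 in HepG2 at every gene and in Huh7 at none. BAG1 and BAG3 release nucleotide from HSP70, and STIP1, also called HOP, hands clients from HSP70 to HSP90. INO80 peaks in HepG2 were 661 bp at BAG1, 1637 bp at BAG3 and 2236 bp at STIP1. In Huh7 the nearest INO80 peak lay 25043 bp from the start of BAG1, 54328 bp from that of BAG3 and 18890 bp from that of STIP1. YY1 was present at all 3 in both lines, in the order BAG1, BAG3, STIP1 with 1152 bp, 1538 bp and 1295 bp in HepG2 and with 157 bp, 342 bp and 1368 bp in Huh7. YY1 was thus wider in Huh7 at STIP1 and narrower there at BAG1 and BAG3.

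Small heat shock proteins hold unfolding proteins without ATP, and the 2 in the group stood apart from each other. HSPB1, also called HSP27, had an INO80 peak of 2557 bp in HepG2 and 1577 bp in Huh7, and its YY1 peak was 1088 bp in HepG2 and 2824 bp in Huh7. HSPB8, the partner of BAG3 in selective autophagy, had no peak of any factor in either line, which held for 27.8% of coding genes. The nearest INO80 peak lay 414866 bp away in HepG2 and 415745 bp away in Huh7. Both promoters are printed because they hold a heat shock element and differ in occupancy. They cover the 250 bases before the start on the plus strand, at chr7:75931740-75931989 (HSPB1) and chr12:119616486-119616735 (HSPB8), with the element in capitals.
HSPB1: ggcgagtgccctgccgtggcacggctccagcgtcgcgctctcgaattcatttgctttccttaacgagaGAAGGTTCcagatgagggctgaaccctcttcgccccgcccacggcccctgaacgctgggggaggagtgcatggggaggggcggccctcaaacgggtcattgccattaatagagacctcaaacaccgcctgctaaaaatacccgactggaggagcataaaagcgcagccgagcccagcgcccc
HSPB8: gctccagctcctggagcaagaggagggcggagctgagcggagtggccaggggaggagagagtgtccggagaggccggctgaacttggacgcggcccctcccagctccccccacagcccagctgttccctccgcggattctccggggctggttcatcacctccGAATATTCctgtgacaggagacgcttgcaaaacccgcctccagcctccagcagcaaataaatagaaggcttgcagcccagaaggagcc
The CpG count of the HSPB8 window was 0.475 of that predicted, the lowest among the 47 genes, beside a median of 0.893 over the group and 0.749 over coding genes.

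HSPD1 and HSPE1, the 2 parts of the mitochondrial chaperonin known as HSP60 and HSP10, run in opposite directions from a shared promoter. The widest peak within 1 kb was the same for both in every list that marked them, so they are not independent. That peak was 4330 bp for INO80, 5065 bp for MCRS1, 1366 bp for RUVBL1, 2380 bp for RUVBL2 and 1853 bp for YY1 in HepG2, and 1905 bp for INO80, 742 bp for MCRS1 and 1971 bp for YY1 in Huh7. RUVBL2 had no peak there in Huh7. The RUVBL1 peak covers neither representative start, and the MCRS1 peak in Huh7 covers that of HSPE1 and not that of HSPD1. A run of 3 overlapping heat shock element matches, in capitals, lies at chr2:198364786-198364814 (minus strand), 245 bases before the HSPD1 start.
HSPD1: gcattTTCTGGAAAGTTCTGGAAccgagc

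J proteins stimulate the ATPase of HSP70. INO80 occupied 6 of the 7 in HepG2 and all 7 in Huh7, the one role with more genes in Huh7. DNAJB1, whose promoter is printed above, had INO80 at 4960 bp, MCRS1 at 4863 bp, RUVBL1 at 646 bp, RUVBL2 at 2108 bp and YY1 at 1319 bp in HepG2. In Huh7 its peaks were 438 bp for INO80, 325 bp for MCRS1, 408 bp for RUVBL2 and 1222 bp for YY1. The YY1 peak of DNAJB1 thus kept nearly its width in Huh7, while the INO80 peak there was over 10 times narrower. The ER J proteins DNAJB9, DNAJB11 and DNAJC3 had INO80 peaks of 1320 bp, 745 bp and 1165 bp in HepG2 and 1324 bp, 265 bp and 208 bp in Huh7. Those of DNAJB11 lie over 3 kb from its representative start, where INO80 had 147 bp in HepG2 and none in Huh7. The cytosolic DNAJA1 and DNAJA2 had 1214 bp and 1364 bp in HepG2 and 242 bp and 364 bp in Huh7. DNAJB4 was the single gene of the group with INO80 in Huh7 and not in HepG2. That peak was 156 bp wide and lay 694 bp from the coding start. The call depends on which start is used: the upstream starts of its other annotated transcripts, 24755 to 25764 bp upstream, had an INO80 peak of 3621 bp in HepG2 and 1709 bp in Huh7, in a region where FUBP1 also starts.

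TRiC is a ring of paralogous subunits that folds actin, tubulin and other cytosolic proteins, and every one of its 8 genes had INO80 and YY1 in both lines. The INO80 peaks in HepG2 were 573 bp at CCT2, 1376 bp at CCT3, 1506 bp at CCT4, 1176 bp at CCT5, 2086 bp at CCT6A, 2318 bp at CCT7, 1187 bp at CCT8 and 3229 bp at TCP1. In Huh7 they were 712 bp at CCT2, 1207 bp at CCT3, 1806 bp at CCT4, 262 bp at CCT5, 934 bp at CCT6A, 1176 bp at CCT7, 732 bp at CCT8 and 298 bp at TCP1. CCT2 and CCT4 were wider in Huh7 and the other 6 wider in HepG2, with TCP1 the most so. MCRS1 occupied all 8 in HepG2 and 5 in Huh7, and RUVBL2 occupied 7 in HepG2 and 3 in Huh7. CCT8 alone among them had no RUVBL1 or RUVBL2 peak in any list. Each subunit occurs equally often in the ring, while the peaks at their genes were of unequal width, with a median of 1441 bp in HepG2 and 833 bp in Huh7. TCP1, CCT3, CCT5, CCT6A and CCT7 each have another coding gene starting within 1 kb.

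In the ER, PDIA3, PDIA4 and PDIA6 are disulfide isomerases, and CALR and CANX are the lectins that retain glycoproteins until they fold. All 5 genes had INO80, MCRS1 and YY1 in HepG2 and all 5 had INO80 and YY1 in Huh7. In HepG2 the INO80 peaks were of similar width, at 1029 bp for PDIA3, 1585 bp for PDIA4, 1458 bp for PDIA6, 1407 bp for CALR and 1796 bp for CANX. In Huh7 the lectins had the wider peaks: CALR had 1390 bp and CANX 1182 bp, while PDIA3 had 155 bp, PDIA4 247 bp and PDIA6 207 bp. MCRS1 in Huh7 had peaks of 920 bp at CALR and 631 bp at CANX, RUVBL2 had peaks of 1610 bp at CALR and 793 bp at CANX, and neither factor had one at the 3 isomerases. Some of these peaks lie at other starts of the gene: the INO80 and MCRS1 peaks of CANX in Huh7 lie 20099 bp and 20397 bp from its representative start, and the INO80 peak of PDIA6 20031 bp from its own. At the representative start, CANX had 995 bp of INO80 and no MCRS1 peak in Huh7, and PDIA6 had no INO80 peak.

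The ER stress response element, CCAAT and CCACG separated by 9 bases, is the site through which ATF6 with NF-Y acts. It was searched on both strands in the 250 bases before the start and was found in 6 of the 47 genes (12.8%) and in 20 of 19781 coding genes (0.101%). Those 20 include the 6. The group was picked to hold genes of this response, so the higher share may follow from that choice and is no separate result. The 6 are HSPA5, HSP90B1, PDIA6, CALR, CANX and XBP1, shown here with the element including its spacer in capitals, on the strand of the gene. HSP90B1 has 2, and the second one of HSP90B1 and that of CALR run on the opposite strand, so they read as CGTGG, 9 bases and ATTGG.
HSPA5, chr9:128003665-128003693, minus: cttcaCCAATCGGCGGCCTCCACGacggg
XBP1, chr22:29196586-29196614, minus: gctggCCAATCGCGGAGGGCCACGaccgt
CANX, chr5:179125774-179125802, plus: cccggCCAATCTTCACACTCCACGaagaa
PDIA6, chr2:10952974-10953002, minus: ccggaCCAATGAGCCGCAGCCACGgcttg
CALR, chr19:13049193-13049221, plus: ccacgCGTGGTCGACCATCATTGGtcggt
HSP90B1, chr12:104323989-104324017, plus: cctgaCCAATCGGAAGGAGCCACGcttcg
HSP90B1, chr12:104324094-104324122, plus: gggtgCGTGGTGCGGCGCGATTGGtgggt
Since the element was searched before the representative start, peaks were counted here within 1 kb of that start alone. All 6 genes then had INO80, MCRS1, RUVBL2 and YY1 in HepG2, and 3 had RUVBL1. Counted the same way, 44 of the 47 genes had INO80 in HepG2, 45 had MCRS1, 33 had RUVBL2, 45 had YY1 and 20 had RUVBL1. In Huh7, 6 of the element genes had YY1, 5 had INO80, 4 had MCRS1 and 3 had RUVBL2. Of the 47 genes, 43 had YY1 there, 37 had INO80, 21 had MCRS1 and 17 had RUVBL2. The shares over coding genes given earlier count any coding start. Counting any coding start added INO80 at PDIA6 and MCRS1 at CANX in Huh7 and RUVBL1 at CANX in HepG2, all at starts about 20 kb upstream of the element. The INO80 peaks at the representative start in Huh7 ranged from 299 bp at HSP90B1 to 5025 bp at XBP1, so carrying the element went with no single width.

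Of the genes of the unfolded protein response and ERAD, XBP1, ATF4, DDIT3 and HERPUD1 had wide INO80 peaks, and ATF6 and SEL1L narrow ones. The median INO80 width over these 6 genes was 3621 bp in HepG2 and 1524.5 bp in Huh7, next to the 4330 bp in HepG2 and 1905 bp in Huh7 of the mitochondrial chaperonin promoter. The larger set of 14 unfolded protein response genes described below had lower medians, of 1432.5 bp in HepG2 and 504 bp in Huh7. XBP1 encodes the factor made active when the sensor IRE1 splices its mRNA. Its widest peaks in HepG2 were 5743 bp for INO80, 6445 bp for MCRS1, 3625 bp for RUVBL1, 4061 bp for RUVBL2 and 1191 bp for YY1. In Huh7 they were 5025 bp for INO80, 1869 bp for MCRS1, 1080 bp for RUVBL2 and 4824 bp for YY1. The INO80 peak in Huh7 ranked 26th of 15303 and was the widest INO80 peak of the group there, and XBP1 kept its INO80 width between the lines better than HSPA1B did. YY1 went the other way, being wider in Huh7.

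ATF4, the factor translated when the kinase PERK or its relatives slow protein synthesis, was covered most fully across factors. In HepG2 it had 4853 bp of INO80, 4563 bp of MCRS1, 5411 bp of RUVBL1, 5023 bp of RUVBL2 and 1965 bp of YY1. In Huh7 it had 3563 bp of INO80, 1685 bp of MCRS1, 3583 bp of RUVBL2 and 5718 bp of YY1. Its RUVBL1 peak ranked 16th of 5518 and its RUVBL2 peak in Huh7 26th of 3322. The gene spans chr22:39915700-39918688, so each of these peaks except MCRS1 in Huh7 and YY1 in HepG2 was longer than the gene. DDIT3, the stress factor also called CHOP, had 3559 bp of INO80 in HepG2 and 1542 bp in Huh7 and a peak in all 9 lists. HERPUD1, an ERAD adaptor at the ER membrane, had 3683 bp in HepG2 and 1507 bp in Huh7.

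ATF6 and SEL1L were the exceptions in this role. ATF6, the ER-anchored sensor, had narrow INO80 peaks of 296 bp in HepG2 and 421 bp in Huh7. It was the one gene with YY1 in HepG2 (1145 bp) and not in Huh7, where the nearest YY1 peak lay 1217 bp from a start, just outside the limit. It was also the one gene with RUVBL1 and no RUVBL2 in HepG2, a pattern of 2.35% of coding genes, and the nearest RUVBL2 peak lay 1074 bp away. SEL1L, the scaffold of the HRD1 ubiquitin ligase, had INO80 peaks of 166 bp in HepG2 and 160 bp in Huh7, at the 7.63 and 8.54 percentiles of their lists, and YY1 of 602 bp in HepG2 and 147 bp in Huh7.

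A stretch of the XBP1 promoter free of annotated exons, at chr22:29196586-29196670 on the minus strand, spans 113 to 29 bases before the representative start and holds the ER stress response element, in capitals.
XBP1: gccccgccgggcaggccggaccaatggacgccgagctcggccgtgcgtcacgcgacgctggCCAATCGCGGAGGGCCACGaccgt
It lies under the INO80 peaks of both lines. Downstream of the XBP1 start the INO80 peak ran on for 3711 bp in HepG2 and 3628 bp in Huh7.

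**Figure D4:**
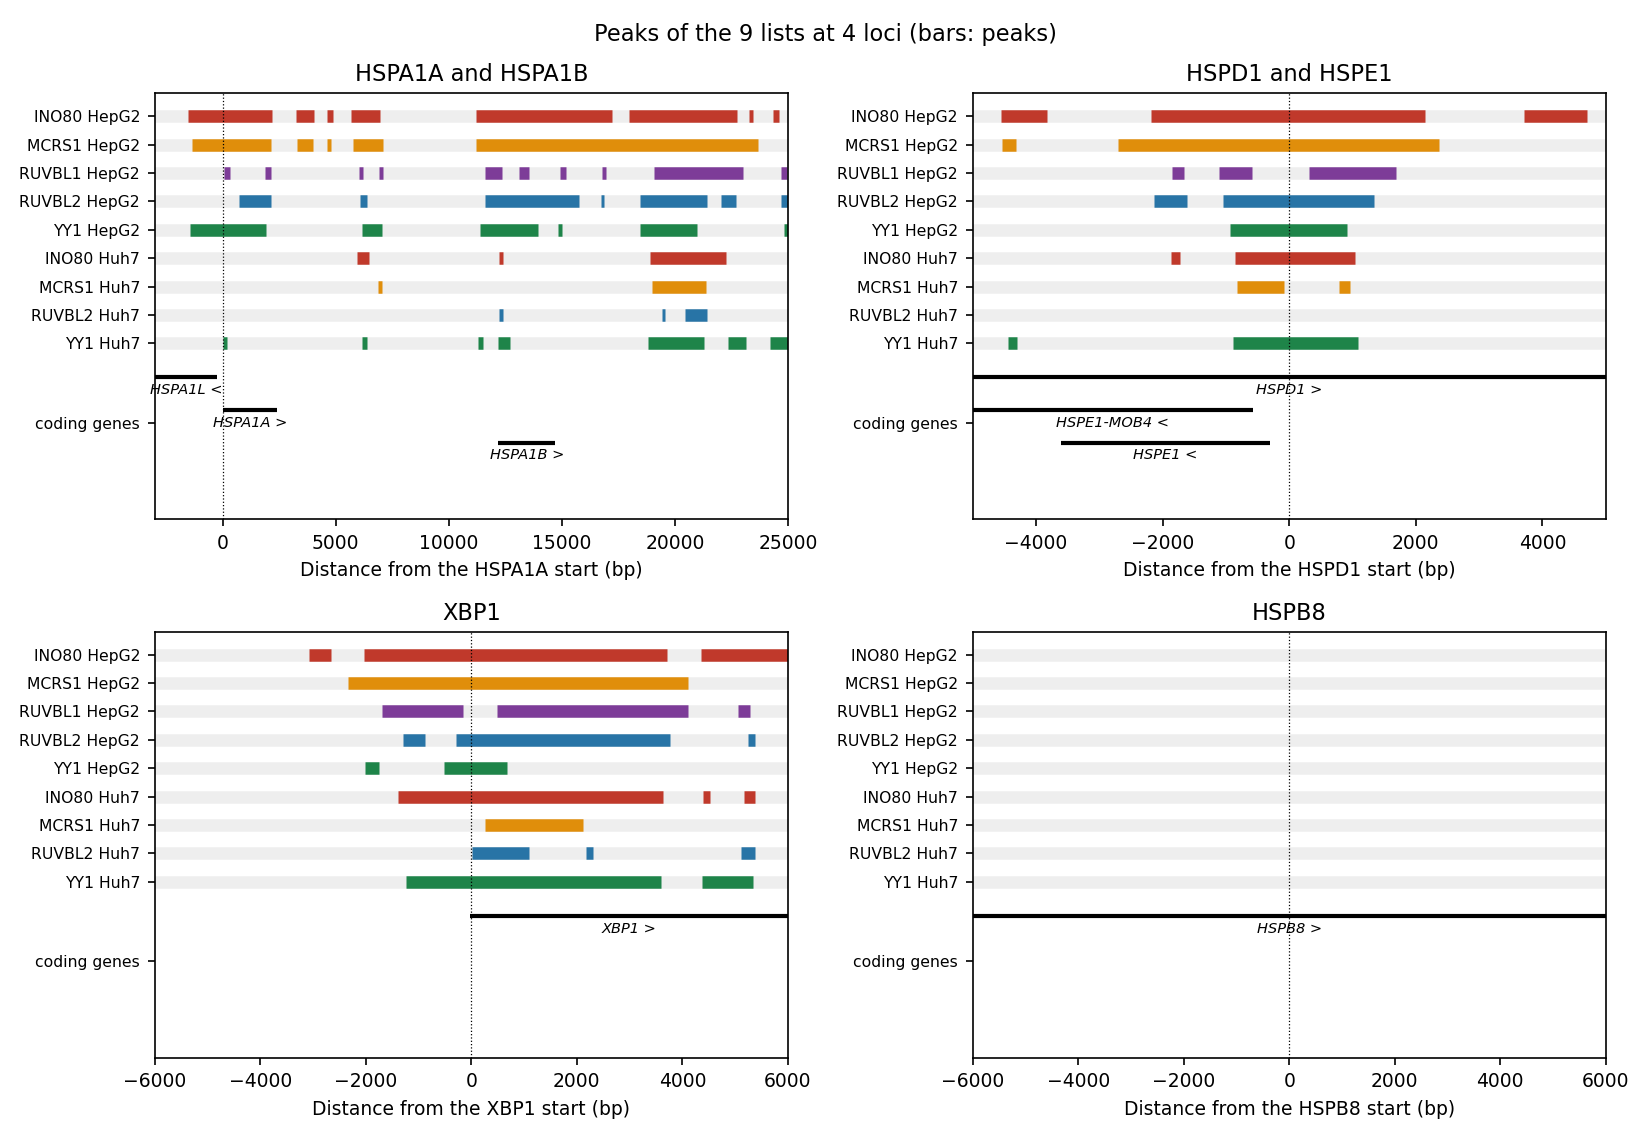
Peaks of the 9 lists (coloured bars, 1 row per list, HepG2 rows above Huh7 rows) at 4 loci, against distance from the named start (x axis, bp, positive in the direction of the gene), with coding genes as black lines and > or < for their direction. Long INO80 and MCRS1 bars run across HSPA1A and HSPA1B in HepG2 and not in Huh7, while past HSPA1B both lines have them. The representative starts of HSPD1 and HSPE1 lie under 1 INO80 peak in each line, XBP1 is covered in both lines, and HSPB8 has no bar.

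The factors met on the same promoters. INO80, MCRS1 and YY1 were all present at 44 of the 47 genes in HepG2, beside 54.1% of coding genes, and at 22 in Huh7, beside 19.8%. All 5 factors were present at 21 genes in HepG2, beside 14.4%, and all 4 at 13 genes in Huh7, beside 9.07%. A peak in all 9 lists marked HSPA8, HSP90AB1, DNAJB1, CCT4, CCT7, CANX, XBP1, ATF4 and DDIT3, which is 9 of 47 genes beside 5.26% of coding genes. At the representative start alone, DNAJB1 had no RUVBL1 peak, and CANX had neither RUVBL1 in HepG2 nor MCRS1 in Huh7. The widest INO80 peak itself overlapped an MCRS1 peak at 44 of 44 genes in HepG2, beside 85.1% of coding genes with INO80, and a YY1 peak at 43, beside 87.2%, with HSPA2 as the exception. In Huh7 it overlapped a YY1 peak at 35 of 39 genes, beside 78.3%, an MCRS1 peak at 21, beside 40.4%, and a RUVBL2 peak at 16, beside 23.2%. INO80 and YY1 without MCRS1 or RUVBL2 marked 0 genes in HepG2, beside 2.54% of coding genes, and 11 in Huh7, beside 17.8%. The 11 in Huh7 were HSPA4, HSPH1, DNAJA2, DNAJB11, DNAJC3, CCT6A, CCT8, PDIA3, PDIA4, PDIA6 and SEL1L. The MCRS1 and RUVBL2 lists were shorter in Huh7, with 6020 and 3322 peaks, beside 23425 and 12936 in HepG2.

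Between the lines, INO80 was shared at most genes and narrower in Huh7. Both lines had INO80 at 38 genes, beside 45.3% of coding genes. HSPA1A, HSPA2, TRAP1, BAG1, BAG3 and STIP1 had it in HepG2 only, 6 of 47 beside 18.4% of coding genes, DNAJB4 in Huh7 only, beside 2.4%, and HSPA13 and HSPB8 in neither, beside 33.9%. All 6 genes with INO80 in HepG2 only had a YY1 peak in Huh7, of 157 to 1368 bp, where YY1 marked 44 of the 47 genes and 51.5% of coding genes. MCRS1 was present in both lines at 22 genes, beside 21.2%, in HepG2 only at 23, beside 37%, and in Huh7 only at 0, beside 0.697%. RUVBL2 was shared at 14 genes, beside 11.2%, with 20 in HepG2 only, beside 27.9%, and 3 in Huh7 only, beside 1.42%: HSPA14, HSPB1 and DNAJB9. For every factor mapped in both lines the list was shorter in Huh7, with 15303 INO80 peaks there beside 23665 in HepG2. With as many widest peaks from both lists of a factor, INO80 was in HepG2 only at 5 genes, beside 13.9%. It was then in Huh7 only at 3, beside 5.39%: DNAJB4, ATF6 and SEL1L. MCRS1 was in HepG2 only at 17 genes, beside 14.6%, and in Huh7 only at 2, beside 9.74%. RUVBL2 was in HepG2 only at 6, beside 7.74%, and in Huh7 only at 5, beside 6.23%. The excess of RUVBL2 in HepG2 was thus nearly gone at equal length. YY1 was shared at 44 genes, beside 48.5%, and present in HepG2 only at ATF6, beside 14%, with the HepG2 list drawn from another project's reads.

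At the 38 genes with INO80 in both lines, the median width was 1616.5 bp in HepG2 and 896.5 bp in Huh7. The median log2 ratio of HepG2 over Huh7 was 1.17, beside 0.83 over 8961 coding genes, and 32 of the 38 were wider in HepG2. The other 6 (15.8%, beside 18.1% of coding genes, so near the background) were wider in Huh7 and were HSPA9, HSPA14, DNAJB9, CCT2, CCT4 and ATF6. None of these 6 was assigned to the heat shock response, though HSPA14 carries a heat shock element. The programs were assigned with earlier results known, and 6 genes are too few to read a direction by program. YY1 differed less, with a median log2 ratio of 0.31 over 44 genes beside 0.49 over coding genes, and 18 of the 44 (40.9%, beside 24.6% of coding genes) were wider in Huh7, among them XBP1, ATF4, DDIT3, HSPB1 and HSPA8. Width depends on depth and on how peaks were called as well as on binding, and these could not be told apart here.

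**Figure D5:**
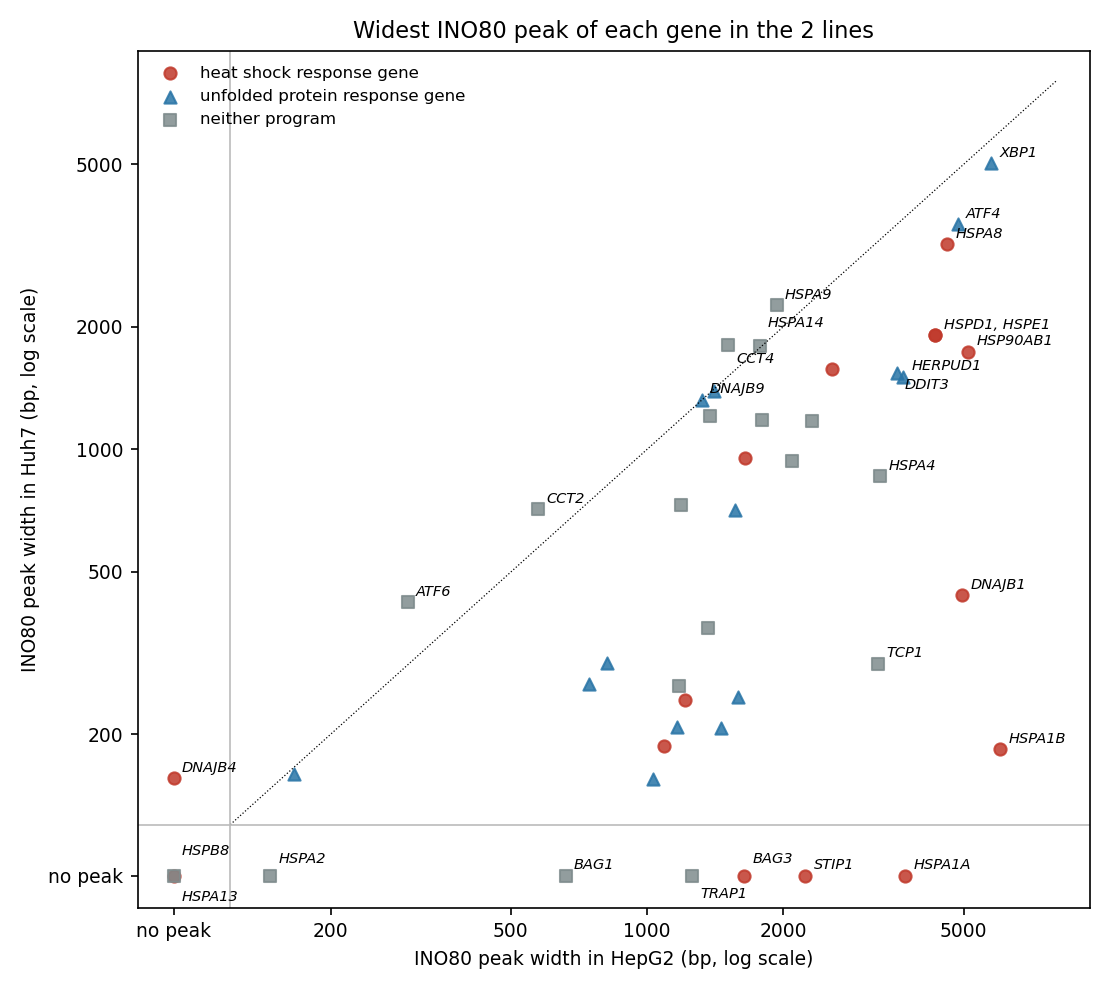
Width of the widest INO80 peak at each gene in HepG2 (x axis) and Huh7 (y axis), in bp on log scales, with genes lacking a peak set in the strips at the margins; the dotted line marks equal width. Circles are heat shock response genes, triangles unfolded protein response genes and squares neither; HSPA1B and DNAJB1 lie far below the line, XBP1 lies close to it, and 6 genes lie above it.

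Grouped by program, the 15 heat shock response genes had INO80 at 13 in HepG2 and 11 in Huh7, with median widths over occupied genes of 3713 bp in HepG2 and 954 bp in Huh7. The 14 unfolded protein response genes had INO80 at 14 in both lines, with medians of 1432.5 bp in HepG2 and 504 bp in Huh7. Among these, the Huh7 peaks of DNAJB11 and PDIA6 lie 3456 bp and 20031 bp from the representative start, where neither gene had INO80. The 18 genes assigned to neither program, ATF6 among them, had INO80 at 17 in HepG2 and 14 in Huh7. Their medians were 1376 bp in HepG2 and 896.5 bp in Huh7. Over all coding genes the share with INO80 was 63.7% in HepG2 and 47.7% in Huh7. With HSPD1 and HSPE1 counted once, which was tried after the data were seen, the heat shock median was 3135 bp in HepG2 and 696 bp in Huh7. The heat shock genes thus had the highest median of the 3 programs in HepG2 under either count, while in Huh7 their place against the genes of neither program turned on counting this shared promoter once.

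Heat shock elements were more frequent than in coding genes as a whole, at 14 of the 47 promoters (29.8%) beside 9.47% of 19781. The group was picked to hold heat shock genes too, so this excess may likewise follow from the choice of genes. With the window carried on to 100 bases past the start, which was chosen after the data were seen, the count was 20 genes beside 12.6%. Of the 14 genes, 12 had INO80 in HepG2 and 12 in Huh7, 12 had YY1 in each line, and 7 had RUVBL1 in HepG2 (6 at the representative start, without DNAJB1). Over all 47 genes, INO80 marked 44 in HepG2 and 39 in Huh7, YY1 marked 45 and 44, and RUVBL1 marked 22 in HepG2. The shares over coding genes were 63.7% and 47.7% for INO80, 62.6% and 51.5% for YY1, and 16.8% for RUVBL1. HSPB8 and DNAJB4 carry the element without an INO80 peak in HepG2, and HSPA1A and HSPB8 without one in Huh7. An element made of 2 overlapping matches is shown for HSP90AA1 and for HSPH1, with capitals as before, at chr14:102553451-102553475 and chr13:31736082-31736106 on the minus strand.
HSP90AA1: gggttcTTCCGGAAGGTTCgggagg
HSPH1: cgcagaTTCTGGAAAGTTCtgatca
The core sequence AANATGGC, bound by YY1, was found in either direction before the start of 2 genes, HSPA4 and HERPUD1 (4.26% beside 3.51% of coding genes), while YY1 peaks lay at 45 of the 47 genes in HepG2. With the window carried on to 100 bases past the start the same 2 genes held it, beside 8.96% of coding genes, so the share was then below that of coding genes. The composite element TGATGNAA, through which ATF4 and C/EBP act, was found at HERPUD1 alone, 2.13% beside 2.18%. A match is only a run of letters, and its absence from this window says nothing of the factor.

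Another 105 genes of the same pathways, which are not in the group, were described the same way. INO80 occupied 92 of them in HepG2 (87.6%) and 69 in Huh7 (65.7%), YY1 occupied 96 in HepG2 and 89 in Huh7, and RUVBL1 occupied 32 in HepG2. The widest INO80 peaks among them in HepG2 were 5582 bp at PTGES3, the HSP90 co-chaperone p23, 5465 bp at P4HB, the main disulfide isomerase, and 4437 bp at CEBPB, a transcription factor of the stress response. In Huh7 they were 4161 bp at PTGES3, 3322 bp at BAG4, an HSP70 exchange factor, and 2198 bp at ATF3, a target of ATF4. All 10 HSP90 co-chaperones of this wider list had INO80 in HepG2, and 6 had it in Huh7. The 6 prefoldin subunits, which pass unfolded actin and tubulin to TRiC, had INO80 in both lines at every gene, as TRiC did. HSPB8 was not alone among small heat shock proteins: of the 8 others, 1 had INO80 in HepG2 (IFT25, also called HSPB11) and 1 in Huh7 (HSPB6). DNAJA4, CRYAB, HSPB2, HSPB3, HSPB9 and DERL3 had no peak in any list. CHAC1, named after its values were seen, is a glutathione-degrading enzyme induced by ATF4 and CHOP. It had no peak in HepG2, and in Huh7 it had 336 bp of INO80, 265 bp of MCRS1, 189 bp of RUVBL2 and 1119 bp of YY1.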

How the data were processed

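The measurements are ChIP-seq peak lists from HepG2 and Huh7, 1 per factor and line. Per the submitters' processing notes, Bowtie2, SAMtools, MACS2, bedtools and deepTools were used, on hg19 and dm3. Their versions are not listed. The authors deposited filtered lists that hold coordinates and no height. How a factor's libraries entered peak calling, singly or pooled, is not given in these sources, and depth is unknown. Fly spike-in counts, input libraries and acetylated histone libraries were not used here.

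Gene starts were those of protein-coding transcripts in the basic set of GENCODE release 44 lifted to hg19, on chromosomes 1 to 22, X and Y. A peak counted when at least 1 bp lay within 1000 bp of a start. Percentiles rank a width within its own list, with ties at their middle. Each number over coding genes includes the 47 genes. Sequence windows began 250 bases before the representative start, and 19781 coding genes had a complete one. No test was run, since a list has no replicate. The counting was tested on simulated peaks. Work used Python 3.11.15, NumPy 2.4.6, SciPy 1.17.1 and matplotlib 3.10.9. Other windows, starts, list lengths and subsets of the genes were tried as alternatives.

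The 47 genes, their grouping by role and program, which rests on general knowledge, and the list of 105 further pathway genes were chosen with earlier results of these data known. Of those 105, 104 matched the annotation as written and 1 through an older symbol. Values by name were given for genes without INO80 in a line, genes whose calls differed between lines in at least 2 factors, the widest peaks of each list, and every HSP70, TRiC and unfolded protein response gene. The widest gene of each further role was named too. Promoters were printed for up to 6 genes with a heat shock or ER stress element and for the gene without peaks.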

Additional observations from a re-analysis of the deposited data

How the results depend on the processing

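Of 152 values recomputed under alternatives, 139 stayed within their limits and 13 moved. Keeping only the 3322 widest peaks of each list left 20 genes for INO80, 20 for MCRS1, 18 for RUVBL2 and 19 for YY1 in HepG2, and 18 for INO80 and 22 for YY1 in Huh7. These fell because fewer peaks were kept. With the wider 50% of each list, 23 genes had INO80 in Huh7. A window of 250 bp left 13 genes with all factors in HepG2. With as many widest peaks from both lists of a factor, 3 genes had INO80 (beside 5.39% of coding genes), 2 had MCRS1 (9.74%) and 5 had RUVBL2 (6.23%) in Huh7 and not in HepG2, and 6 had RUVBL2 in HepG2 and not in Huh7 (7.74%). At 5 kb, 0 genes had YY1 in HepG2 and not in Huh7, since ATF6 then gained it, and HSPA2 gained INO80 in Huh7. With the 250 bp window HSPA2 lost INO80 in HepG2, and DNAJB4, TCP1 and PDIA6 lost it in Huh7. Leaving out HSPA1A and HSPA1B, or genes with a neighbouring start, was chosen after seeing the data. Neither choice moved a share of genes occupied by more than 1.5 times. Of the 31 genes without a neighbouring start, 28 had INO80 in HepG2, and 25 had INO80 and 11 had MCRS1 in Huh7. The share over coding genes without a neighbouring start was not counted. The percentile of width is on another scale and stands in the report. No paired analysis was possible because the peak lists hold no replicates, and for the same reason no replicate could be left out.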
